A study of Sus scrofa with 9 samples.

Results

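The genes described here encode the proteins that hold neighbouring cells of the testis together: claudins, occludin and junctional adhesion molecules of tight junctions, connexins of gap junctions, cadherins, catenins, nectins and related cell adhesion molecules, and desmosomal proteins. They were taken by name: every sense probe of the array whose gene name belongs to one of these families (CLDN, OCLN, TJP, GJA to GJC, CDH, CTNN, F11R, JAM2 and JAM3, PVRL or NECTIN, DSG, DSC, DSP, JUP, CADM and ESAM), apart from CLDN11 and CDH5, which served as markers of Sertoli and endothelial cells. This gave 49 of the 40580 gene and transcript names on the array, with 78 of its 60889 non-control probes. For 32 of the 49 genes at least 1 probe was among those that the authors retained in their value table, and the probe with the highest mean there stood for the gene. All 32 passed the filter on dim probes in each comparison. The other 17 genes, with 21 probes, had no such probe and are described further on.

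Sertoli cells, the somatic cells of the seminiferous tubule, join each other near the tubule base in a belt of tight junctions, adherens junctions, desmosomes and gap junctions. This belt is the blood-testis barrier, which separates spermatogonia from the meiotic and postmeiotic germ cells and is opened and rebuilt as spermatocytes pass through it. Claudins form the tight junction strands with occludin, cadherins bind across the gap between cells and are tied to actin through catenins, nectins link Sertoli cells to spermatids, and connexins pass small molecules between cells.

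The study followed a boar with a balanced reciprocal translocation between chromosomes 1 and 14, labelled trcp(1;14), whose semen was oligo-astheno-teratospermic (few sperm, poor motility, abnormal shape). Its testis was compared with that of fertile control boars with normal semen and with testis of an oligospermic group of normal karyotype, which the paper does not describe, with 3 arrays in each group, all from total RNA of testicular biopsies. According to the methods, the t(1;14) arrays held separate extractions from 1 Landrace and Duroc crossbred boar, and the controls came from 3 boars, while elsewhere the paper speaks of a pool of control boars. Neither which control boar each array held nor the number of oligospermic boars is given in the sources used here, and of ages only that the t(1;14) boar was young. The p-values therefore measure the spread between these arrays, which within the t(1;14) group was spread within a single animal and within the control group may or may not be spread between animals. Each of the 3 slides carried 1 array of every group.

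Values are log2 signals of a one-colour Agilent porcine array. A level depends on the probe, so levels are compared between arrays and never between genes. Between 37087 and 40632 of the 60889 probes were well above background on an array. The 3 groups had similar ranges (37425 to 40632 in control, 37614 to 39672 in oligospermic and 37087 to 40001 in t(1;14)). In whole tissue, fewer cells of a type and less RNA per cell cannot be told apart, and this touches every difference below.

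The probes are 60 bases long and are printed 5′ to 3′ in lower case, for the genes on which the comparisons turn. The first set holds the single probe, or the probe used, of genes with a difference past the threshold.
CLDN3: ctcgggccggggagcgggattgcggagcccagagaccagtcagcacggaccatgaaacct
CDH11: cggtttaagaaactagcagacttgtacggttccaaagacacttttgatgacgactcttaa
CDH16: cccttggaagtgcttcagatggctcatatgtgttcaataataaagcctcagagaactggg
CTNND1: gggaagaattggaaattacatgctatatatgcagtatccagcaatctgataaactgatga
GJA1: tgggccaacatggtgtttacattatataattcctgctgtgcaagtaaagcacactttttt
CLDN7: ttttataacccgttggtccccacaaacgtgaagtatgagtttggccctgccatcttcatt
The second set shows genes with several probes whose readings are compared below. Capitals mark the longest run of bases that the overlapping probes of a gene share.
CLDN12, probe used: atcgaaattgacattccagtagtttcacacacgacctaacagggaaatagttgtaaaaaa
CLDN12, other probe: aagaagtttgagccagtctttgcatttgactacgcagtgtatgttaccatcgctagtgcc
CDH13, probe used: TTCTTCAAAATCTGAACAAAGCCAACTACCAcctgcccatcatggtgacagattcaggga
CDH13, overlapping probe: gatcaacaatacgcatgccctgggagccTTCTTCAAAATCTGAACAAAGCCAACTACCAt
OCLN, probe used: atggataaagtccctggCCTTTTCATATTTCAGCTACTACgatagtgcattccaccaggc
OCLN, overlapping probe: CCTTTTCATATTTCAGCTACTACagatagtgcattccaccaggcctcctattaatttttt
OCLN, upstream probe: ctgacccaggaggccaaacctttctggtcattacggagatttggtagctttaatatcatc
F11R, probe used: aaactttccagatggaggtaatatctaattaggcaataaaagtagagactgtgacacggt
F11R, upstream probe: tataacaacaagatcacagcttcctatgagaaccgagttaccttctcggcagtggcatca
CTNNB1, probe used: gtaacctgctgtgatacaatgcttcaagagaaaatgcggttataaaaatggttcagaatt
The CLDN3 probe has the highest GC content among the 32 probes used (66.7%, median 44.2%). The CLDN12 probes do not overlap, whereas those of CDH13 share 31 bases. Both OCLN probes near the 3′ end share an unbroken run of 23. Past a single extra base in the overlapping probe they match again to the end of the probe used, so they read nearly the same stretch.

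Against control testis, t(1;14) testis had lower CDH11, CDH16, CDH13, CLDN12 and CTNND1 and higher GJA1 and CTNNB1. These 7 of the 32 genes (21.9%) had an adjusted p of at most 0.01 in limma, 5 lower and 2 higher, where 31.1% of all 40643 tested probes passed (15.6% higher and 15.6% lower). CDH11 alone also reached a log2 fold change of 2, the second part of the threshold for differential genes in the methods (1 of 32, all probes 5.53%). The arrays of both groups did not overlap for 19 of the 32 genes, and for 62.0% of all probes. The median log2 fold change was -0.14 over the 32 genes and 0.14 over all probes. The count of 7 rested on the full set of arrays: without t(1;14) array 1 or 3 it was 3, without t(1;14) array 2 it was 4 (all probes 14.4% to 18.7% in these fits), and with the slide as a block it was 4 (all probes 24.0%). CDH11 and CLDN12 passed in each of the 17 alternative settings, which include each array left out.

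Against oligospermic testis, t(1;14) testis differed in 11 of the 32 genes (34.4%, all probes 49.1%). CLDN3, CDH11, CDH16, CDH13, CTNND1, CLDN19 and CLDN12 were lower (7, all probes 22.0%), and GJA1, CLDN7, F11R and CTNNB1 were higher (4, all probes 27.1%). CLDN3 and CDH11 also passed the fold threshold (2 of 32, all probes 6.72%). Groups did not overlap for 19 genes (all probes 70.9%), and the median was -0.11 against 0.14 for all probes. Leaving out any single array gave 11 or 12 genes, among them the same 11, and the slide as a block gave 19 (all probes 56.0% in that fit), these 11 and CADM4, CDH1, CDH24, CDH7, CLDN8, DSG2, JUP and OCLN. Both comparisons use the same t(1;14) arrays, so that a gene appearing in both is not independent evidence.

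Between oligospermic and control testis none of the 32 genes passed (0 of 32 in limma, all probes 0.0755%, and 0.0730% with the fold threshold). At an unadjusted p under 0.05 there were 5 genes (JAM2, CLDN12, CLDN7, CDH1 and CDH11, named here after their values were seen), or 15.6% against 9.86% of all probes. The arrays did not overlap for 7 genes (all probes 15.7%). The lowest log2 fold change was -0.74 (95% interval -1.89 to 0.41, adjusted p = 0.718) for DSP and the highest 0.75 (95% interval -0.50 to 2.01, adjusted p = 0.735) for CLDN3, and these intervals do not show that the groups were alike. Control array 1 carried both, since without it they were -0.18 and 0.15.

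**Figure D1:**
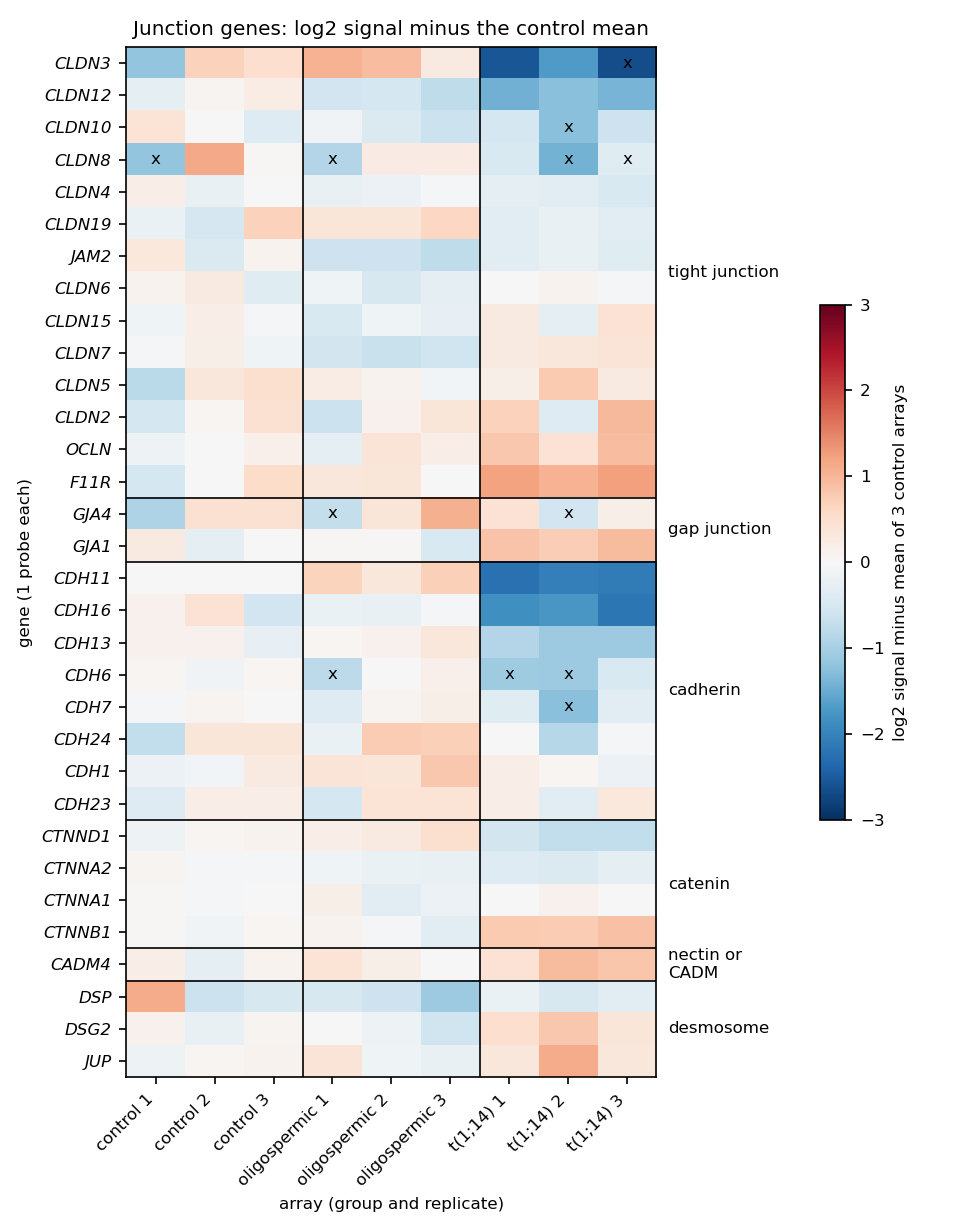
Log2 signal of the 32 junction genes (rows, grouped by role) on the 9 arrays (columns) minus the mean of the 3 control arrays, with a cross where the probe was not well above background. CLDN3, CDH11, CDH16 and CLDN12 are below the control mean on every t(1;14) array and F11R, GJA1 and CTNNB1 are above it, while the control and oligospermic columns differ less.

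Among tight junction genes, CLDN12 passed the test against control (1 of 14, all probes 31.1%), and 5 of 14 passed against oligospermic testis (all probes 49.1%). CLDN3 encodes a claudin of the Sertoli cell barrier that in rodents is found in newly forming junctions. Its probe read 5.25, 7.12 and 6.94 on the control arrays, 7.47, 7.36 and 6.72 on the oligospermic arrays and 3.86, 4.74 and 3.79 on the t(1;14) arrays. All t(1;14) values were under all others, and t(1;14) array 3 was not well above background. Control array 1 was low within its own group. The log2 fold change of t(1;14) was -3.03 (SE 0.31, adjusted p = 2.91e-04) against oligospermic testis. Against control it was -2.30 (SE 0.54, adjusted p = 0.0137), which missed the threshold. Without control array 1 it was -2.87 (adjusted p = 0.00165). Under the normexp background correction, which compresses dim probes, the difference from oligospermic testis was -1.33 and from control -0.87 (adjusted p = 0.0228).

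CLDN12, a broadly expressed claudin, read 7.88, 8.27 and 8.39 on the control arrays, 7.61, 7.66 and 7.41 on the oligospermic arrays and 6.75, 6.93 and 6.78 on the t(1;14) arrays. The 3 groups did not overlap, with control highest and t(1;14) lowest. Its log2 fold change in t(1;14) was -1.35 (SE 0.16, adjusted p = 0.00113) against control and -0.74 (SE 0.11, adjusted p = 0.00133) against oligospermic testis. The oligospermic group differed from control by -0.62 (adjusted p = 0.302), which did not pass. The second, non-overlapping CLDN12 probe read 6.86, 7.01 and 7.37 on the control arrays, 6.58, 6.39 and 6.10 on the oligospermic arrays and 5.24, 5.61 and 5.29 on the t(1;14) arrays. It gave the same order of groups, with -1.69 (SE 0.18, adjusted p = 7.03e-04) for t(1;14) against control and -0.98 (SE 0.16, adjusted p = 0.00223) against oligospermic testis.

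CLDN7, a claudin of epithelia, read 7.14, 7.35 and 7.06 on the control arrays, 6.63, 6.51 and 6.58 on the oligospermic arrays and 7.46, 7.53 and 7.58 on the t(1;14) arrays. The oligospermic arrays were lowest and the t(1;14) arrays highest, without overlap. The difference of t(1;14) from oligospermic testis was 0.94 (SE 0.088, adjusted p = 2.01e-04), while those from control were 0.34 (adjusted p = 0.0589) for t(1;14) and -0.62 (adjusted p = 0.191) for the oligospermic group. Under normexp the first was 0.56. CLDN19, a kidney claudin that partners CLDN16 and is named here after its values were seen, read 6.87, 6.56 and 7.77 on the control arrays, 7.43, 7.44 and 7.68 on the oligospermic arrays and 6.73, 6.84 and 6.73 on the t(1;14) arrays. It was lower in t(1;14) than in oligospermic testis, at -0.75 (SE 0.11, adjusted p = 0.00112), and the control arrays spanned both. That call was lost with all 9 arrays normalized and fitted together and with the replicate number as a block.
CLDN5, the main claudin of blood vessel endothelium and also of the Sertoli cell barrier, read 4.62, 5.75 and 5.90 on the control arrays, 5.65, 5.54 and 5.35 on the oligospermic arrays and 5.61, 6.20 and 5.69 on the t(1;14) arrays. Control array 1 lay lowest and the groups overlapped. The t(1;14) differences were 0.41 (95% interval -0.48 to 1.29, adjusted p = 0.385) against control and 0.32 (95% interval -0.11 to 0.75, adjusted p = 0.159) against oligospermic testis. Without control array 1 the first was 0.0065.

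Occludin (OCLN), a membrane protein of the tight junction strand, read 7.02, 7.19 and 7.34 on the control arrays, 6.91, 7.56 and 7.37 on the oligospermic arrays and 7.99, 7.61 and 8.10 on the t(1;14) arrays. Every t(1;14) value was above every other, but neither difference passed, with 0.71 (SE 0.17, adjusted p = 0.0146) against control and 0.62 (SE 0.21, adjusted p = 0.0381) against oligospermic testis. With the slide as a block the second passed (adjusted p = 0.00243). The overlapping OCLN probe passed against control, at 0.91 (SE 0.18, adjusted p = 0.0073). The upstream probe was not higher in t(1;14), at -0.21 (SE 0.17, adjusted p = 0.35) against control and -0.45 (SE 0.16, adjusted p = 0.0411) against oligospermic testis, so the direction for OCLN depends on the probe.
F11R, junctional adhesion molecule A, read 6.05, 6.55 and 7.12 on the control arrays, 6.91, 6.94 and 6.59 on the oligospermic arrays and 7.79, 7.62 and 7.81 on the t(1;14) arrays. All t(1;14) arrays were highest, at 1.15 (SE 0.27, adjusted p = 0.0129) against control, just short of the threshold, and 0.93 (SE 0.13, adjusted p = 0.00103) against oligospermic testis. The latter missed the threshold with all 9 arrays fitted together (adjusted p = 0.0116). The upstream F11R probe went the other way. It read 2.91, 2.95 and 4.79 on the control arrays, 4.41, 4.63 and 4.69 on the oligospermic arrays and 2.42, 3.11 and 2.22 on the t(1;14) arrays. It had no t(1;14) array and 1 of 3 control arrays well above background. This probe entered the test against oligospermic testis only through the oligospermic group, where it was high, so its p-value is no support. Its signal was at least 1.95-fold higher in oligospermic than in t(1;14) testis, the t(1;14) level being only a bound.
JAM2, an adhesion molecule of endothelium and germ cells, read 10.77, 10.02 and 10.56 on the control arrays, 9.83, 9.83 and 9.68 on the oligospermic arrays and 10.14, 10.22 and 10.09 on the t(1;14) arrays. The oligospermic arrays were lowest, and no difference passed: -0.29 (adjusted p = 0.263) for t(1;14) and -0.69 (adjusted p = 0.354) for oligospermic testis against control, and 0.36 (adjusted p = 0.0141) between them. The other 6 tight junction genes (CLDN2, CLDN4, CLDN6, CLDN8, CLDN10 and CLDN15) passed in no comparison, with log2 fold changes of t(1;14) between -0.79 and 0.43 against control and between -0.61 and 0.48 against oligospermic testis.

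**Figure D2:**
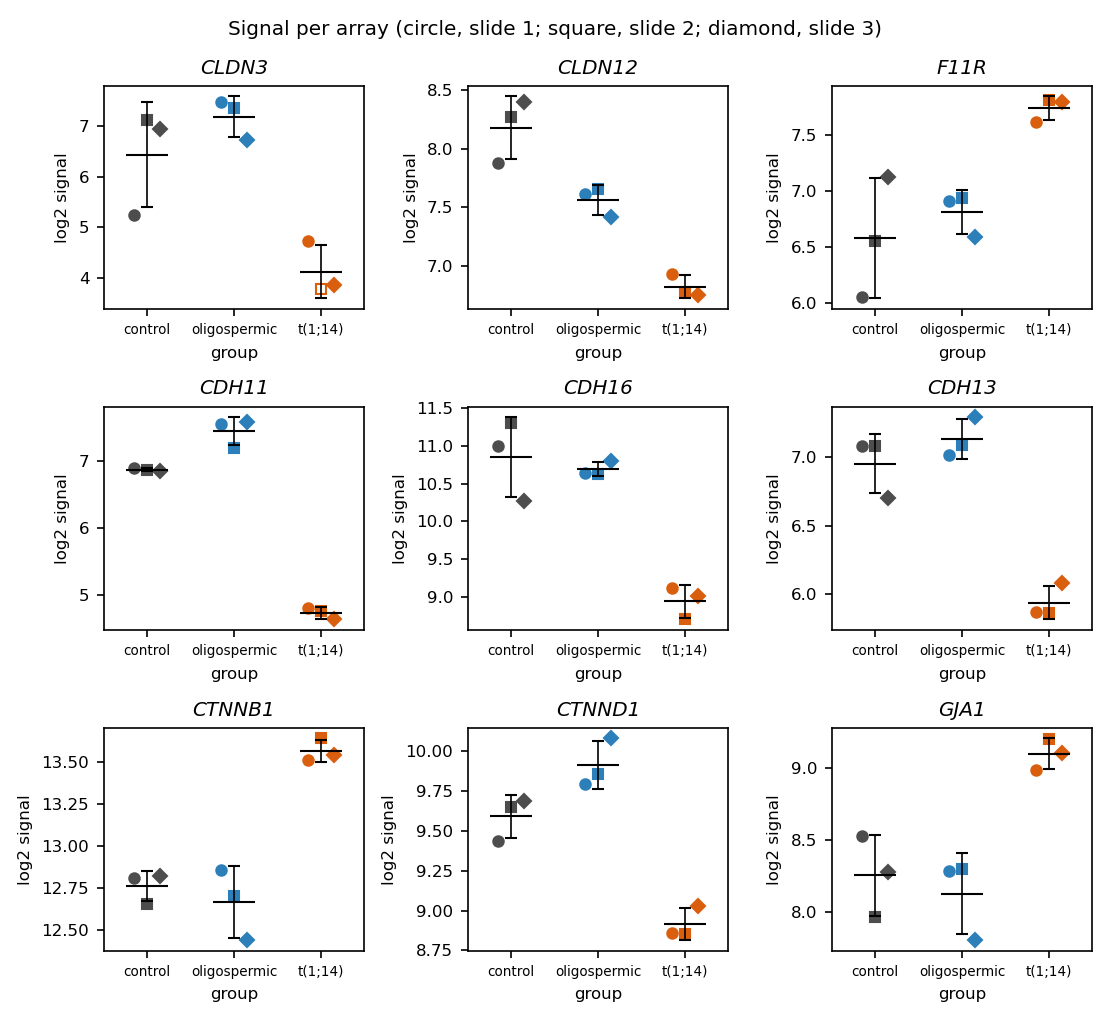
Log2 signal of 9 junction genes on each array by group, with the mean and SD of 3 arrays as the black bar (circles, slide 1; squares, slide 2; diamonds, slide 3; open symbol, not well above background). In every panel the t(1;14) symbols lie outside the range of the control and oligospermic symbols.

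Of the 2 gap junction genes with a retained probe, GJA1 passed the test in both t(1;14) comparisons (all probes 31.1% and 49.1%). GJA1 encodes connexin 43, the main connexin between Sertoli cells and between Sertoli and germ cells. It read 8.52, 7.96 and 8.27 on the control arrays, 8.28, 8.29 and 7.80 on the oligospermic arrays and 9.11, 8.99 and 9.21 on the t(1;14) arrays, so that all t(1;14) values were highest. The log2 fold change was 0.84 (SE 0.17, adjusted p = 0.00753) against control and 0.97 (SE 0.16, adjusted p = 0.0021) against oligospermic testis. The first of these lost the threshold in 9 of 17 settings, among them the slide as a block (adjusted p = 0.0211) and 5 of 6 arrays left out, with an unaltered direction. A second GJA1 probe gave 0.67 (SE 0.20, adjusted p = 0.0302) against control and 0.96 (SE 0.21, adjusted p = 0.00673) against oligospermic testis. GJA4, a connexin of arterial endothelium named here as the only other one with a retained probe, differed by 0.0075 (95% interval -1.07 to 1.08, adjusted p = 0.99) from control.

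Of the 8 cadherins, CDH11, CDH13 and CDH16 passed in both t(1;14) comparisons (all probes 31.1% and 49.1%), and all 3 were lower. CDH11, a classical type II cadherin of mesenchymal cells, read 6.89, 6.86 and 6.86 on the control arrays, 7.55, 7.20 and 7.58 on the oligospermic arrays and 4.64, 4.81 and 4.77 on the t(1;14) arrays. The control values lay within 0.03 of each other, and the t(1;14) values were separated from both groups by over 2 log2 units. The log2 fold change was -2.12 (SE 0.11, adjusted p = 1.27e-04) against control, a 4.35-fold lower signal, and -2.69 (SE 0.13, adjusted p = 2.24e-05) against oligospermic testis, 6.45-fold. On the 3 slides the difference from control was -2.07, -2.09 and -2.21. Under normexp the values were -0.94 and -1.38, still past the adjusted p but short of the fold threshold. The oligospermic arrays were all above the control arrays, by 0.58 (adjusted p = 0.256), which did not pass.

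CDH16, a cadherin known from kidney epithelium, read 10.996, 11.30 and 10.27 on the control arrays, 10.65, 10.63 and 10.80 on the oligospermic arrays and 9.01, 9.12 and 8.70 on the t(1;14) arrays. Its log2 fold change was -1.89 (SE 0.28, adjusted p = 0.0024) against control and -1.74 (SE 0.13, adjusted p = 8.90e-05) against oligospermic testis. Without t(1;14) array 1 or 3 the difference from control missed the threshold (adjusted p = 0.0105 and 0.0127). The array annotation describes this probe, like those of CLDN12, CLDN2, CLDN8 and JAM2, only as a pig cDNA clone, so that their gene names are the array's own.
CDH13, a cadherin anchored in the membrane without a cytoplasmic tail and known from vessels and smooth muscle, read 7.08, 7.08 and 6.70 on the control arrays, 7.01, 7.09 and 7.29 on the oligospermic arrays and 6.08, 5.87 and 5.87 on the t(1;14) arrays. The differences were -1.001 (SE 0.15, adjusted p = 0.00255) and -1.18 (SE 0.12, adjusted p = 2.48e-04). Its overlapping probe, which shares 31 bases, gave -0.43 (SE 0.25, adjusted p = 0.187) and -0.37 (SE 0.14, adjusted p = 0.0526), the same direction without passing. The difference of the first probe from control missed the threshold in 5 of 17 settings, which were the slide and the replicate number as blocks, the mean of probes and t(1;14) array 2 or 3 left out (adjusted p = 0.0113 to 0.0171). Under normexp the differences were -0.58 and -0.73, and as the mean of probes the second was -0.78.
E-cadherin (CDH1), the cadherin of epithelia and of undifferentiated spermatogonia, read 4.56, 4.65 and 5.02 on the control arrays, 5.12, 5.11 and 5.55 on the oligospermic arrays and 4.95, 4.79 and 4.57 on the t(1;14) arrays. Control and t(1;14) arrays overlapped, at 0.029 (95% interval -0.39 to 0.44, adjusted p = 0.899), and the oligospermic arrays were highest, at 0.52 (95% interval 0.059 to 0.99, adjusted p = 0.446) against control. The remaining cadherins, CDH6, CDH7, CDH23 and CDH24, did not pass, with t(1;14) differences from control between -0.87 and 0.06. CDH6 was not well above background on t(1;14) arrays 1 and 2.

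**Figure D3:**
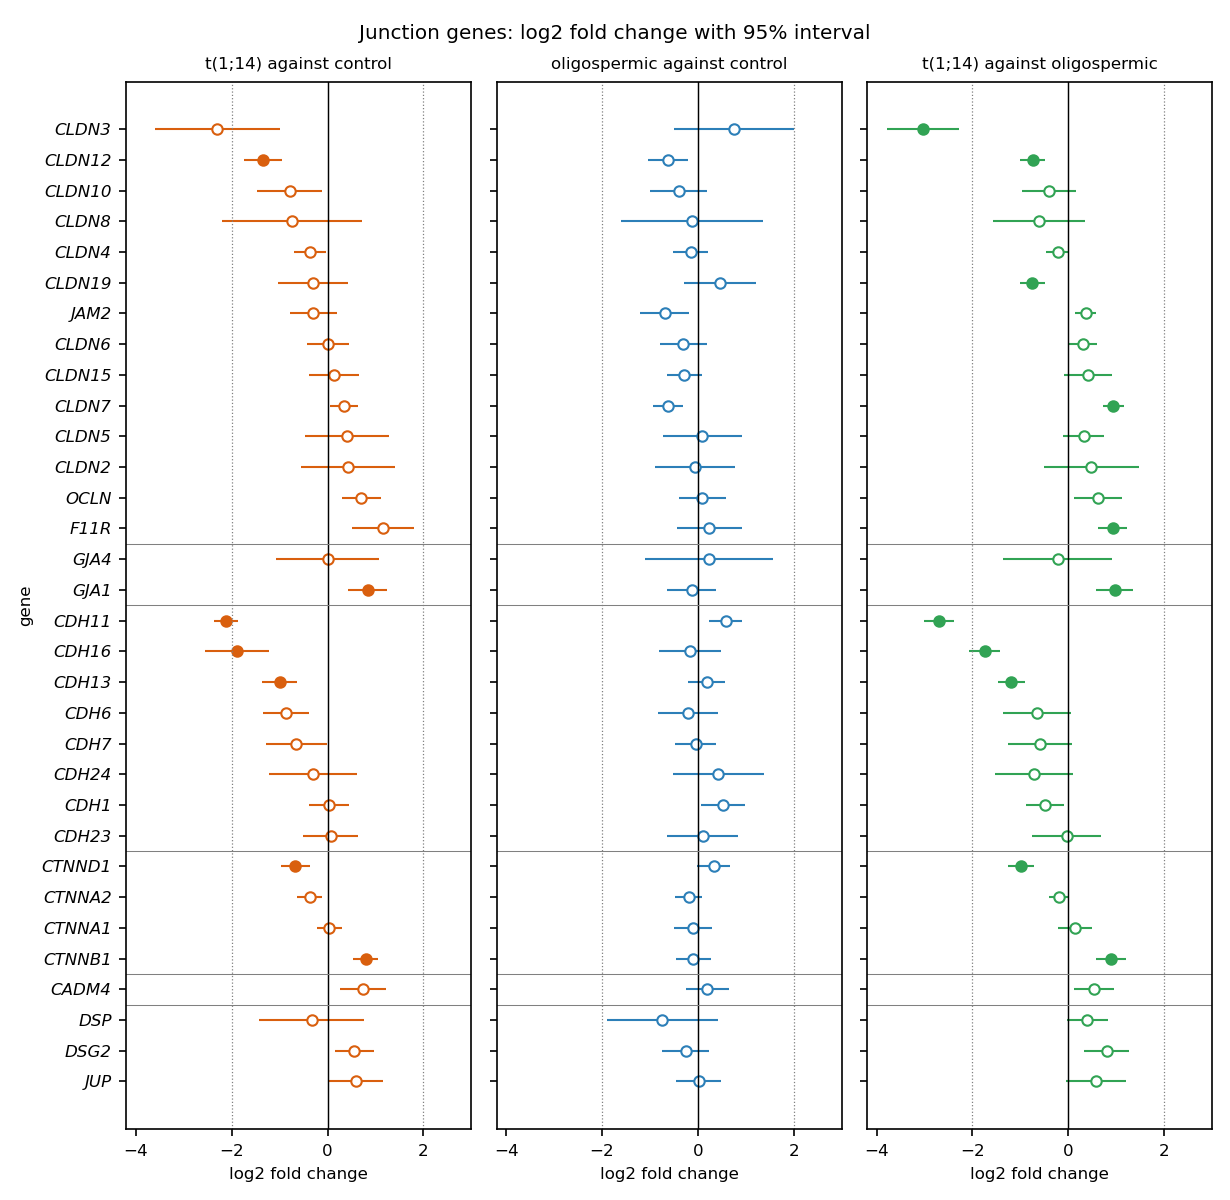
Log2 fold changes of the 32 junction genes in the 3 comparisons (points, filled at an adjusted p of at most 0.01) with 95% intervals, and dotted lines at -2 and 2. The filled points are 7 against control, 0 in the oligospermic comparison and 11 against oligospermic testis, and those of the cadherins all lie left of 0.

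The catenins link cadherins to actin, and 2 of the 4 passed in each t(1;14) comparison (all probes 31.1% and 49.1%), 1 lower and 1 higher. Beta-catenin (CTNNB1), which binds the cadherin tail and also acts in Wnt signalling, read 12.81, 12.66 and 12.82 on the control arrays, 12.86, 12.70 and 12.44 on the oligospermic arrays and 13.54, 13.52 and 13.64 on the t(1;14) arrays. The t(1;14) values were highest by over 0.6, with 0.80 (SE 0.11, adjusted p = 0.00192) against control and 0.89 (SE 0.13, adjusted p = 0.00122) against oligospermic testis. Without t(1;14) array 1 or 3 the difference from control missed the threshold (adjusted p = 0.0115 and 0.0129). CTNNB1 had 7 tested probes, and all 7 were higher in t(1;14), with 5 past the threshold against control and 6 against oligospermic testis. Their log2 fold changes against control lay between 0.17 and 0.80, the probe used giving the largest. In the oligospermic comparison the 7 probes lay between -0.16 and 0.03.

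Delta-catenin (CTNND1, p120), which stabilises cadherins at the membrane, read 9.44, 9.65 and 9.69 on the control arrays, 9.79, 9.86 and 10.08 on the oligospermic arrays and 9.03, 8.86 and 8.85 on the t(1;14) arrays. It was lowest in t(1;14), with -0.67 (SE 0.12, adjusted p = 0.00562) against control and -0.99 (SE 0.11, adjusted p = 4.66e-04) against oligospermic testis. The second CTNND1 probe gave -1.10 (SE 0.17, adjusted p = 0.00306) and -1.18 (SE 0.13, adjusted p = 4.18e-04). The difference of the first probe from control missed the threshold in 7 of 17 settings, 5 of them single arrays left out and 1 the slide as a block (adjusted p = 0.0117).
Alpha-catenin (CTNNA1), the actin link of the complex, read 12.84, 12.77 and 12.78 on the control arrays, 12.99, 12.49 and 12.62 on the oligospermic arrays and 12.79, 12.94 and 12.78 on the t(1;14) arrays. Its 3 overlapping probes lay between -0.05 and 0.04 for t(1;14) against control and between 0.05 and 0.14 against oligospermic testis. The interval of the probe used was -0.22 to 0.29 against control. CTNNA2 did not pass, at -0.37 (adjusted p = 0.0296) against control.

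**Figure D4:**
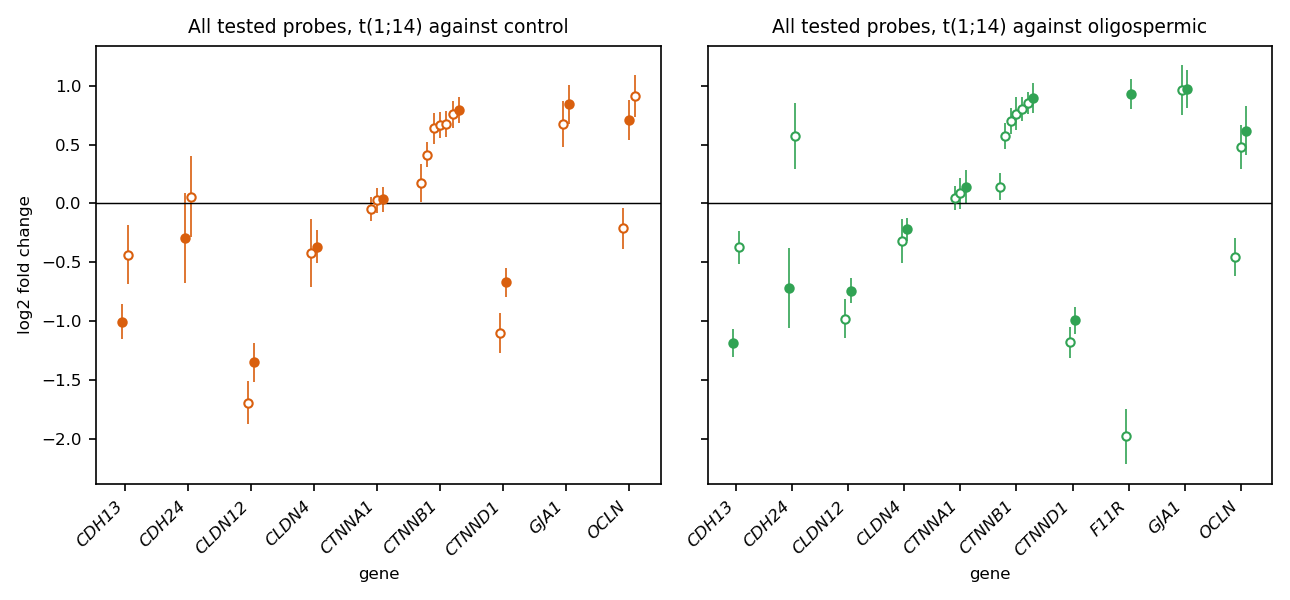
Log2 fold change (SE bars) of every tested probe of the genes with more than 1, filled for the probe used, in t(1;14) against control (9 genes) and against oligospermic testis (10 genes), probes of a gene in order of their value. All 7 CTNNB1 probes lie above 0 in both panels, and the probes of OCLN and CDH24 fall on both sides of 0 in both, as do those of F11R against oligospermic testis.

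Over all genes with more than 1 tested probe, the probes of 6 of 9 genes had the same direction in t(1;14) against control, and those of 5 of 9 had the same call. Against oligospermic testis both counts were 7 of 10.

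Of the 3 desmosome genes 0 passed in either t(1;14) comparison in limma (all probes 31.1% and 49.1%). At an unadjusted p under 0.05 there were 2 against control (all probes 58.0%) and 1 against oligospermic testis (all probes 68.7%). CADM4, the only member of the nectin and CADM group with a retained probe, did not pass the adjusted p either. With the slide as a block, DSG2, JUP and CADM4 passed against oligospermic testis. Desmoglein 2 (DSG2), a desmosomal cadherin, read 4.84, 4.47 and 4.79 on the control arrays, 4.72, 4.54 and 4.10 on the oligospermic arrays and 5.20, 5.51 and 5.07 on the t(1;14) arrays. All t(1;14) values were highest, with 0.56 (SE 0.17, adjusted p = 0.0328) against control and 0.80 (SE 0.19, adjusted p = 0.0103) against oligospermic testis (adjusted p = 0.00478 with the slide as a block). Desmoplakin (DSP), which ties desmosomes to intermediate filaments, read 9.76, 8.01 and 8.17 on the control arrays, 8.17, 8.03 and 7.55 on the oligospermic arrays and 8.44, 8.17 and 8.33 on the t(1;14) arrays. Control array 1 stood apart, and the t(1;14) difference from control was -0.33 (95% interval -1.43 to 0.77, adjusted p = 0.569). Without that array it turned to 0.22. Plakoglobin (JUP), shared by desmosomes and adherens junctions, read 4.09, 4.30 and 4.35 on the control arrays, 4.64, 4.12 and 4.03 on the oligospermic arrays and 4.59, 5.35 and 4.59 on the t(1;14) arrays, with 0.60 (95% interval 0.034 to 1.16, adjusted p = 0.0732) against control and 0.57 (adjusted p = 0.0947) against oligospermic testis, the latter at an adjusted p of 0.00400 with the slide as a block. CADM4, a cell adhesion molecule named here for that reason, differed by 0.73 (adjusted p = 0.023) from control.

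Levels of some junction genes followed the slide. On slide 1 the control, oligospermic and t(1;14) array was each the lowest of its group for 8 of the 32 genes, among them CLDN2, CDH24, GJA4 and OCLN, where 14.5% of all probes behaved so. On the same slide 4 of the 32 genes (12.5%) were highest in all 3 groups, against 16% of all probes. For CLDN3 the within-slide differences from control were -0.51, -3.31 and -3.06.

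Among the 17 genes without a retained probe, 7 were never well above background. They were CDH19, CDH20, CLDN14, CLDN16, CLDN17, CLDN20 and CLDN23, chosen for naming after their values were seen. A further 9 had a probe that was well above background on 1 or 2 arrays (CADM3, CDH15, CDH22, CLDN18, CLDN22, DSG1, GJA5, PVRL1 and TJP3). The probe named CDH15 is described in the annotation as a different cadherin, so that its identity is uncertain. PVRL1 (nectin 1) was well above background on 1 t(1;14) array with 1 of its 3 probes. CLDN9 was the exception, since 1 of its probes was well above background on all 9 arrays. That probe differed by -1.12 between t(1;14) and oligospermic testis (adjusted p = 0.00327) and by -0.71 between t(1;14) and control (adjusted p = 0.0204).

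Several well-known barrier genes, among them TJP1, CDH1 and GJA1, also have probes under accession or older names. A match of accessions to RefSeq symbols, made after values were seen, found 7 such genes with 1 probe each, all well above background on the 9 arrays. Nectin 2, named PRR2 on the array, is the nectin of Sertoli cells that binds nectin 3 on spermatids. It read 9.86, 9.29 and 9.81 on the control arrays, 9.55, 9.48 and 9.62 on the oligospermic arrays and 8.23, 8.45 and 8.0 on the t(1;14) arrays. Its t(1;14) arrays were lowest, with -1.41 (SE 0.20, adjusted p = 0.00215) against control and -1.32 (SE 0.13, adjusted p = 2.79e-04) against oligospermic testis. ZO-1 (TJP1), the scaffold under tight junctions, differed by -0.36 (95% interval -0.77 to 0.052, adjusted p = 0.122) and -0.29 (95% interval -0.58 to 0.002, adjusted p = 0.0743). For JAM3 and for a probe matched by accession to GJC1 (connexin 45), which the array names as another connexin gene, GJD3, the 95% intervals of the difference from control were -0.27 to 0.27 and -0.39 to 0.39, both centred near 0. A further GJA1 probe passed in both comparisons, with 0.89 (SE 0.17, adjusted p = 0.00602) and 1.02 (SE 0.18, adjusted p = 0.00259), the direction of the other GJA1 probes. Probes so matched to CDH1 and CDH6 did not pass; the CDH6 probe differed by 0.04 from control, where the named probe gave -0.87.

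Claudin 11 (CLDN11), the main claudin of Sertoli cell tight junctions, read 14.19, 13.12 and 13.95 on the control arrays, 13.62, 13.70 and 12.99 on the oligospermic arrays and 14.31, 14.43 and 14.36 on the t(1;14) arrays, with 0.62 (SE 0.28, adjusted p = 0.108) for t(1;14) against control and 0.92 (SE 0.20, adjusted p = 0.00623) against oligospermic testis, where 1 of its 4 probes passed and that call was lost in 9 of 17 settings. With 1 array left out its difference from control lay between 0.30 and 0.84. VE-cadherin (CDH5), the cadherin of endothelium, read 5.96, 6.75 and 7.21 on the control arrays, 6.81, 6.81 and 6.56 on the oligospermic arrays and 7.63, 7.53 and 7.74 on the t(1;14) arrays, with 0.98 (SE 0.31, adjusted p = 0.0365) and 0.90 (SE 0.11, adjusted p = 6.49e-04), the latter at an adjusted p of 0.0206 with all 9 arrays fitted together.

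Genes whose proteins work with these junctions differed in both directions. The list of partners held 68 symbols (scaffolds, polarity proteins, actin linkers, kinases and regulators), of which 28 had a retained probe. Against control, 15 of the 28 passed (all probes 31.1%), 8 higher and 7 lower in t(1;14), where 15.6% of all probes passed in each direction. The 8, and the 11 below, include MSN, which was tested only because of its level in t(1;14). Against oligospermic testis 19 passed (all probes 49.1%), 11 higher (all probes 27.1%) and 8 lower (all probes 22.0%). In the oligospermic comparison 0 of 26 passed in limma (all probes 0.0755%), with 2 at an unadjusted p under 0.05 (all probes 9.86%). The median log2 fold change of the 28 partners was 0.47 against control and 0.50 against oligospermic testis, where that of all probes was 0.14 in both. These medians include MSN and SRC, both tested only because of their level in t(1;14), and are raised by that. SRC was well above background on 2 t(1;14) arrays and on 1 array of either other group, and did not pass. The count of 15 was 9 with the slide as a block (all probes 24.0% in that fit). It was 5, 6 and 2 without t(1;14) arrays 1, 2 and 3 (all probes 14.4% to 18.7% in these fits). The excess of partners over all probes was therefore not kept without t(1;14) array 3, where 14.4% of all probes passed.
The largest rises against control were those of TGFB3, a TGF-beta that loosens the barrier, at 1.73 (SE 0.28, adjusted p = 0.00337), and of radixin (RDX), which ties the membrane to actin, at 1.14 (SE 0.15, adjusted p = 0.00165). Moesin (MSN), of the same family, also passed, but it was well above background on 3 t(1;14) arrays and only 1 of 3 control arrays. It entered the test through the group where it was high, so its fitted difference, 1.37, is no measure of the size and fell to 0.34 under normexp without passing (adjusted p = 0.0212). The MSN call against control was also lost with the slide as a block and without any single t(1;14) array. RDX missed the threshold without t(1;14) array 3 (adjusted p = 0.0102) and with the replicate number as a block (adjusted p = 0.0152). Without any single t(1;14) array TGFB3 also missed it (adjusted p = 0.0138 to 0.0162). The third gene of that family, ezrin (EZR), named after its values were seen, was also higher, at 0.88 (SE 0.14, adjusted p = 0.00328). The largest falls were those of ARHGEF2, a regulator held at tight junctions, at -2.36 (SE 0.16, adjusted p = 1.71e-04), of CLMP, a tight junction adhesion molecule, at -1.75 (SE 0.26, adjusted p = 0.00243), and of the polarity gene PARD3B, at -1.36 (SE 0.23, adjusted p = 0.00408). CLMP missed the threshold without t(1;14) array 2 or 3 (adjusted p = 0.0108 and 0.0134) and was -1.09 under normexp. PARD3B missed it without any single t(1;14) array (adjusted p = 0.0132 to 0.0200) and under normexp, where it was -0.51. ARHGEF2 alone reached the fold threshold, with 2 of 3 t(1;14) arrays well above background, and under normexp it stood at -0.83. The mean of all its tested probes gave 0.087 in place of -0.17 in oligospermic against control testis. PARD3 and PARD6A, also polarity genes and named after their values were seen, were lower too, at -1.08 (SE 0.16, adjusted p = 0.00235) and -1.12 (SE 0.17, adjusted p = 0.00241). The intervals of these differences, and those of the oligospermic comparison, stand in the plot of partner genes.

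**Figure D5:**
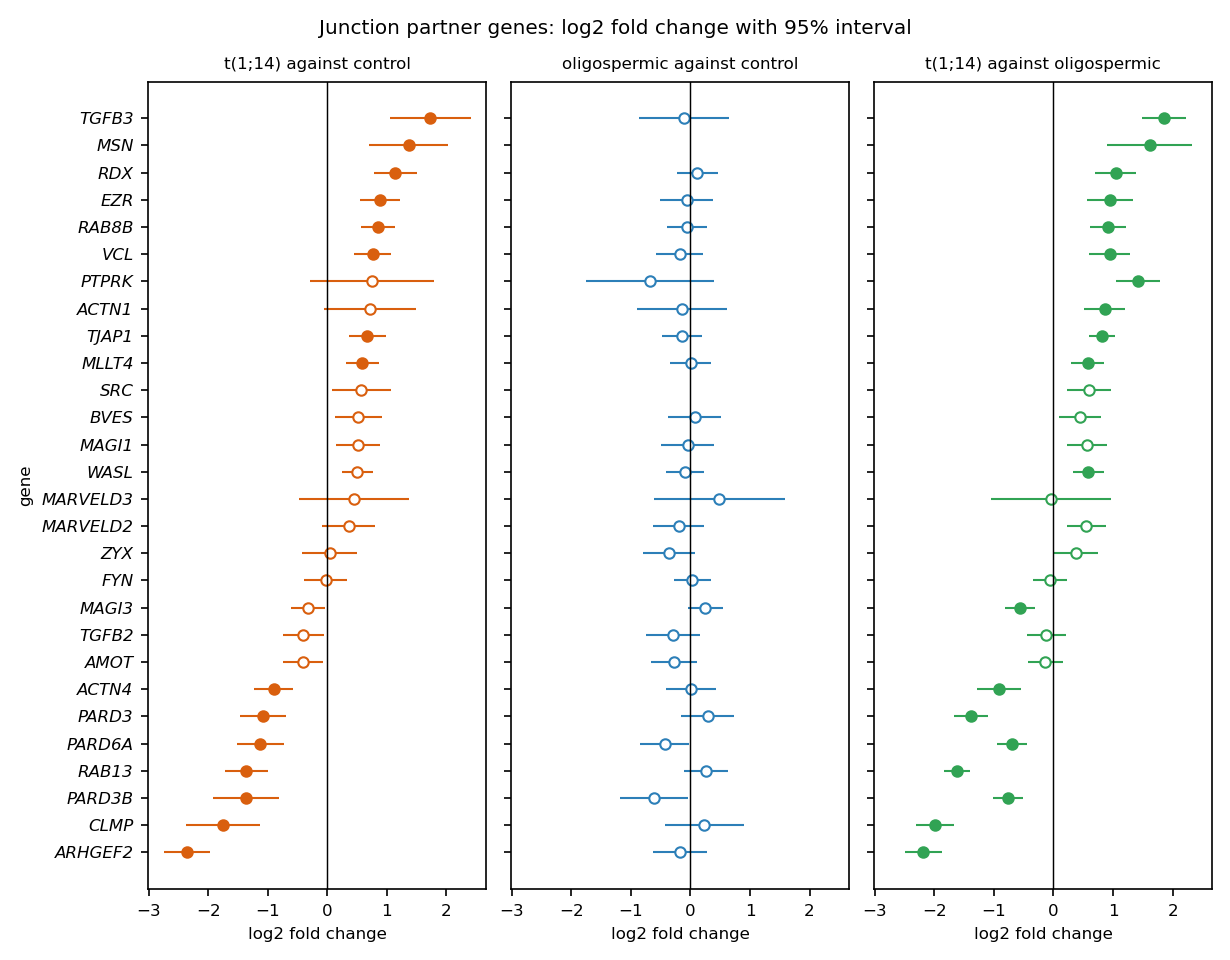
Log2 fold changes of the 28 junction partners in the 3 comparisons (points, filled at an adjusted p of at most 0.01) with 95% intervals. TGFB3, MSN and RDX lie farthest right and ARHGEF2, CLMP and PARD3B farthest left against control, while all points of the oligospermic comparison are open.

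Some markers of testis cell types also differed in t(1;14) testis, and their part in the differences above was not tested. Leydig cell markers were higher in t(1;14) than in control for 5 of 6 (median log2 fold change 2.46). The log2 of their summed signals was 16.90 to 17.0 on t(1;14) arrays, 15.89 to 15.96 on control and 15.55 to 15.97 on oligospermic arrays. Summed signals below are on the same log2 scale, and the brightest markers of a list weigh most in them. Of the spermatid markers 4 of 5 measured were lower (median -1.98; summed signal 16.58 to 16.69 in t(1;14), 17.68 to 17.87 in control and 17.78 to 17.84 in oligospermic testis). Of the Sertoli cell markers 1 of 8 was lower, WT1, and 0 higher, with summed signals of 15.89 to 15.997, 14.83 to 16.05 and 14.85 to 15.51. Endothelial markers were higher for 2 of 6 (10.85 to 11.08, 9.75 to 10.32 and 9.95 to 10.09), immune markers for 1 of 3 (8.10 to 8.36, 7.10 to 7.83 and 7.05 to 7.19), and peritubular markers lower for 1 of 3 (13.74 to 14.22, 13.73 to 14.61 and 13.81 to 14.39). Spermatocyte markers were higher for 1 and lower for 2 of 4, 1 of 2 spermatogonium markers was higher, and 0 of 2 markers of duct epithelium passed. In these counts against control 15.6% of all probes passed in each direction. Against oligospermic testis, where 27.1% of all probes were higher and 22.0% lower, t(1;14) testis had 4 of 6 Leydig, 4 of 6 endothelial, 3 of 3 immune and 2 of 2 spermatogonium markers higher. There 4 of 5 spermatid and 2 of 3 peritubular markers were lower, and markers went both ways for Sertoli cells (1 higher and 1 lower of 8), spermatocytes (2 higher and 1 lower of 4) and duct epithelium (1 higher and 1 lower of 2). In the oligospermic comparison with control no marker on any list passed in limma. All measured markers were well above background on all 9 arrays, other than TEK on 7.

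By the RefSeq gene table of Sscrofa11.1, which gives chromosomes only and is not the assembly of the study, GJA1 and CDH7 lie on chromosome 1 and CDH23 and CLDN5 on chromosome 14, the chromosomes of the translocation. CDH11, CDH13, CDH16, CLDN19 and 4 further genes lie on chromosome 6. CLDN2 lies on chromosome X and differed from control by 0.43 (adjusted p = 0.416).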

How the data were processed

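Total RNA of testicular biopsies was labelled with Cy3 and hybridised to a 60K custom porcine Agilent array, 3 arrays per group, and scanned values came from Feature Extraction 11.5.1.1. The deposited intensity values are that program's background-subtracted processed signals, per the file headers. The deposited value table holds log2 values that the authors normalized by quantiles, with probes of poor spots left out; here it chose the probe of each gene and served as an alternative. Per the methods, the authors tested with limma with an adjusted p threshold of 0.01 and a log2 fold change threshold of 2.

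Here log2 processed signals of the 6 arrays of a comparison were quantile normalized (R 4.3.3, limma 3.58.1), probes well above background on at least 2 of 3 arrays of 1 group were kept, and lmFit and eBayes were run with Benjamini-Hochberg adjustment over all tested probes. Precision is set by the small number of arrays. Signals of single arrays are given after normalization of all 9 arrays together, and differences between group means on that scale depart from the fitted values by at most 0.0289. Intervals are 95% intervals of the fit. The script was tested on simulated data.

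Genes named with values were those differential in any comparison, the 5 largest rises and 5 largest falls past the adjusted p in each, and a fixed list of barrier genes; partners were named by the 3 largest rises and falls. The members and lists were chosen with earlier results of these data known. Deviations of arrays of 1 slide from their group means correlated at 0.10 to 0.50. Alternatives were other scalings, background correction, filters, probe choices, blocks, the authors' values, a variance trend and each array left out. Antisense probes were not used. Of the CTNNB1 probes only the sequence of the one used is printed, and those of the others are not reported here.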

Additional observations from a re-analysis of the deposited data

How the results depend on the processing

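Of the gene counts, that of differential junction genes in t(1;14) against control moved from 1 to 2 with all 9 arrays normalized and fitted together and with an intensity trend, to 4 at a fold threshold of 1 and to 0 under normexp, where 8 genes still passed the adjusted p and CDH11 stood at -0.94. Against oligospermic testis the 2 differential genes became 4 at a fold threshold of 1 and 0 under normexp, where 12 genes passed the adjusted p. Of all 40643 probes tested against control, 6538 passed the adjusted p as higher and 6065 as lower under normexp. Of the 40567 tested against oligospermic testis, 10511 were higher and 8556 lower. The offset of normexp shrinks differences of dim probes, and 14 of 31 called values of named genes moved by over 1.5 times under it. With the slide as a block the junction genes past the adjusted p were 4 in place of 7 against control. Against oligospermic testis they were 19 in place of 11, and the partners were 9 in place of 15 against control. In these fits 24.0% of all probes passed against control and 56.0% against oligospermic testis. The replicate block gave 3 junction genes and 3 partners against control, 9 partners in place of 19 against oligospermic testis, and 9 junction genes there. Shares of all probes are not given for the replicate block, a fold threshold of 1 or the differential counts under these alternatives. Those counts therefore do not show whether these genes or the whole array moved. Deviations of same-numbered arrays from their group means correlated at -0.43 to 0.49, and not every correlation was over 0.1, so the numbers were not taken as pairs. Leaving out 1 array gave 1 to 2 differential genes, 3 to 8 genes past the adjusted p and 2 to 15 partners against control, and 2, 11 to 12 and 13 to 20 against oligospermic testis. The share of all probes past the adjusted p was then 14.4% to 33.3% against control and 35.9% to 49.8% against oligospermic testis. In the oligospermic comparison every count was 0 under every setting run.

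The direction turned for a called value once: F11R against oligospermic testis was -0.52 as the mean of both probes, a value that is no measure of the size because no t(1;14) array read 1 of them well above background. Differences near 0 turned for CTNNA1 at the 75th percentile scaling (-0.12 against control, -0.053 against oligospermic testis), CDH1 against control under normexp (-0.016), and, in the oligospermic comparison, JUP at the 75th percentile (-0.0060) and ARHGEF2 as a mean of probes (0.087). With single arrays left out, uncalled differences from control ranged over both signs for CDH1 (-0.062 to 0.17), CTNNA1 (-0.014 to 0.064) and DSP (-0.64 to 0.22) in t(1;14), and in oligospermic testis for CDH16 (-0.46 to 0.064), CLDN5 (-0.31 to 0.33), CTNNA1 (-0.25 to 0.0028), CTNNB1 (-0.19 to 0.021), F11R (-0.027 to 0.52), GJA1 (-0.28 to 0.037), JUP (-0.18 to 0.14), OCLN (-0.047 to 0.28), CLMP (-0.056 to 0.44), TGFB3 (-0.41 to 0.18) and CDH5 (-0.26 to 0.38). The cause of these changes was not tested. Of 845 values of named genes under the alternatives that keep all arrays, 793 kept direction and side of the threshold. Dim probes such as CLDN3, CDH6 and CLDN8 are limited by their signal over background.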
